A study of Mus musculus with 8 samples.

Results

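The collagen genes outside the keratinocyte's own anchoring collagens were examined in ear epidermal sheets of mice: every gene whose symbol reads Col, a number, a, a number, except Col17a1 and Col7a1. The files held 42 such genes among 51912 gene identifiers. They were compared by class, with 7 fibrillar, 8 cartilage, 8 basement membrane and 19 other collagen genes, as a readout of tissue carried along with the sheets. RNA came from 8 mice, 1 library each, 4 labelled A20KIKO and 4 labelled A20WT.

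Mice of both groups were A20F/F, that is, carried floxed alleles of Tnfaip3, the gene of the ubiquitin-editing protein A20 that restrains NF-kB signalling. The A20KIKO mice were also Krt5-CreERT2+ and the A20WT mice Krt5-CreERT2-, so the Cre itself is part of the difference between them. The promoter of Krt5, which is active in basal keratinocytes, drives this Cre, and the labels name no Cre for dermal or cartilage cells. All mice were 8 weeks old, had 1 mg of tamoxifen injected intraperitoneally on each of 2 days in a row, and tissue was taken 7 days after the first dose. Ear skin was split and left on trypsin overnight, and the sheets were then lifted off by hand. The group comparison therefore asks which collagen transcripts in the lifted sheets differed between mice with and without the inducible keratinocyte Cre.

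Collagens are trimers of chains wound into a triple helix, and the gene family is grouped by what the trimers build. The fibrillar chains of types I, III and V, made mainly by fibroblasts, form the load-bearing fibrils of the dermis. Types II, IX and XI form the thin fibrils of cartilage, which supports the mouse ear between its sheets of skin. Type IV chains form the network of basement membranes, where type XVIII also lies, and both keratinocytes and dermal cells can contribute to it. Types XVII and VII, left out here, tie basal keratinocytes to that membrane and to the dermis beneath.

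Counts summed to between 40451075 and 89624373 per library, at a group mean ± SD over 4 libraries of 68501083 ± 23344215 for A20KIKO and 73140478 ± 17004239 for A20WT. Levels are given as normalised counts (CPM, scaled to equal library size), and per kilobase of annotated exon (RPKM) wherever genes are compared with each other. Tnfaip3 had between 55.0 and 90.9 CPM in the libraries labelled A20KIKO and between 13.5 and 19.6 CPM in those labelled A20WT, a log2 change of 2.16 with a standard error (SE) of 0.18 and an adjusted p of 8.4e-05. A count over the whole gene does not test whether floxed exons were removed, and the groups below are named as labelled. Adjusted p-values come from the quasi-likelihood test of edgeR, adjusted by the Benjamini-Hochberg method over all 16512 tested genes, and a gene was called changed at an adjusted p under 0.05.

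Of the 42 collagen genes, 30 had enough counts to be tested, and 5 of these were called. Col6a1, Col9a3, Col11a1 and Col11a2 fell in the A20KIKO libraries, and Col23a1 rose. The share called was 16.7% of the tested collagen genes against 3.49% of all tested genes. The share that fell was 13.3% against a background of 1.06%, and the 1 gene that rose stands beside a background of 2.43%. The median log2 change of the 30 genes was -0.66, against -0.01 over all tested genes, with 22 negative and 8 positive values. In 9 of the 30 every A20KIKO library lay below every A20WT library, where 4.79% of all tested genes did so, and in 2, Col12a1 and Col23a1, every one lay above, where 5.78% did. The 12 untested genes had between 0 and 79 counts over the 8 libraries together. One of them, Col22a1, had no count in any library, which with a floor of 3 counts allows up to 0.0053 CPM over the pooled counts.

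**Figure D1:**
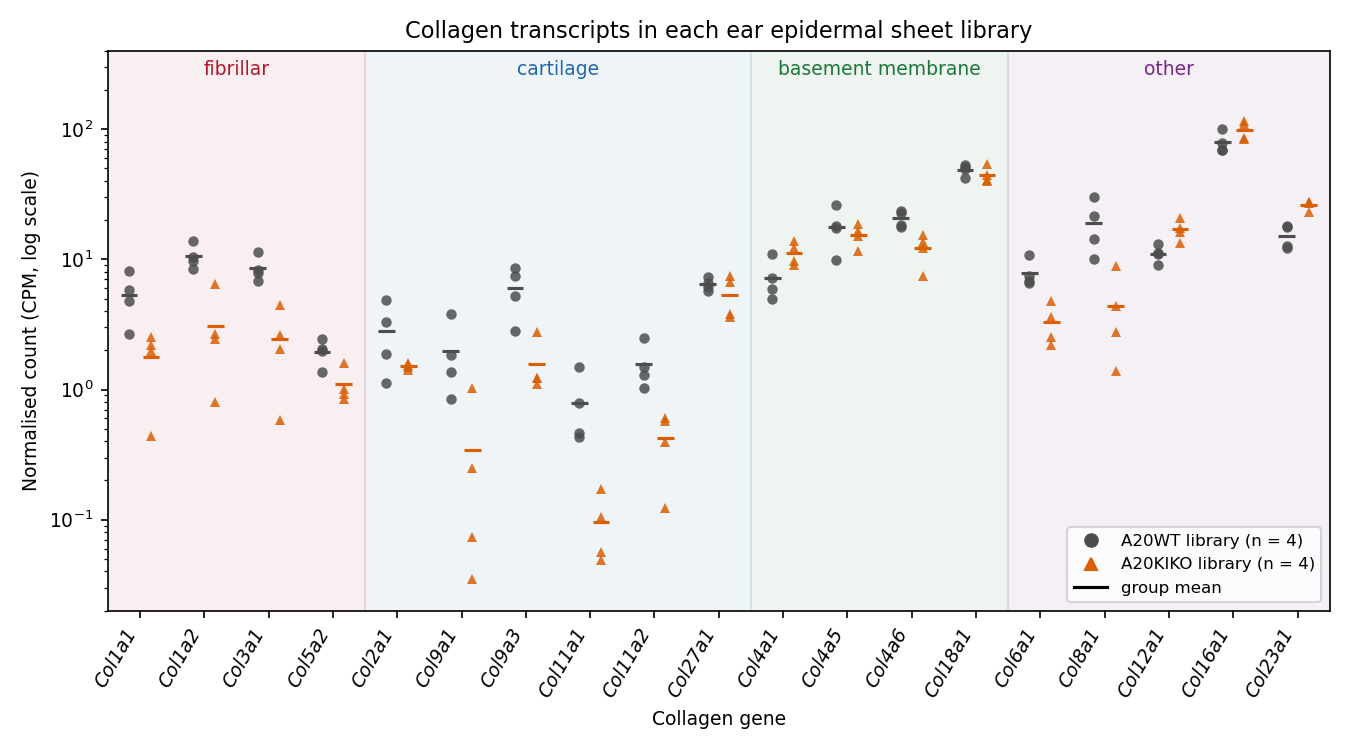
Normalised count (CPM, log axis) of the 19 named collagen genes in each library, by class, with a circle for each A20WT and a triangle for each A20KIKO library and a bar at the group mean. Col1a2 and Col11a1 lie lower in all 4 A20KIKO libraries, with 8.37 to 13.9 against 0.81 to 6.49 CPM for Col1a2, while Col18a1 overlaps between groups and Col23a1 lies higher in all 4.

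Stretches before the start sites of 4 of the 5 called genes, all but Col9a3, are shown. Whether these stretches regulate the genes in the sheets was not tested. They were taken from RefSeq promoter windows on GRCm38.p6 and trimmed to 100 bases that hold no annotated exon. Each reads 5′ to 3′ on the gene's own strand, and capitals mark a CCAAT box (CCAAT) or a GC box (GGGCGG), the binding letters known for NF-Y and for Sp1-type factors, on either strand. The Col11a1 stretch is chr3:114030440-114030539 on the plus strand, the Col11a2 stretch chr17:34039038-34039137 on the plus strand, the Col6a1 stretch chr10:76726169-76726268 on the minus strand and the Col23a1 stretch chr11:51289820-51289919 on the plus strand. The Col6a1 stretch lies 125 to 224 bases before its RefSeq start, and the others lie 1 to 100 bases before theirs.
Col11a1: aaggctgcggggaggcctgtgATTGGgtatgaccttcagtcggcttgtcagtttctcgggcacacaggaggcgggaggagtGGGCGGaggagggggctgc
Col11a2: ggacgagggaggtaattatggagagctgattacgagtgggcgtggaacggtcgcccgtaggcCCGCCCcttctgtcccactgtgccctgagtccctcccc
Col6a1: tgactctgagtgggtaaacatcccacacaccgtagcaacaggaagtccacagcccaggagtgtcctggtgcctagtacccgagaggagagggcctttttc
Col23a1: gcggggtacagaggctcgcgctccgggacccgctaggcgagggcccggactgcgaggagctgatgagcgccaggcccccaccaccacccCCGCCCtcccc
The Col11a1 stretch holds a CCAAT box on the opposite strand and a GC box on its own strand, Col11a2 and Col23a1 each hold a GC box on the opposite strand, and the Col6a1 stretch holds no match. RefSeq windows of 300 bases (250 before and 50 after the start) matched 33 of the 42 collagen genes, in 36 windows. A GC box was present in 61.1% of these windows and in 35.7% of all 32851 windows, a CCAAT box in 30.6% and 37.4%, and the TATA box TATAAA in 11.1% and 13.6%. The letters ACAAT, the core of the sites of SOX factors such as SOX9 of cartilage, were present in 5.56% and 31% of windows. These are matches of letters on both strands and not sites of binding, and none of these motifs contains another, although CCAAT and ACAAT share letters.

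The collagens most abundant in the sheets were neither fibrillar nor cartilage collagens, so the name of dermal and cartilage collagens describes only part of the group. Per exon length, Col16a1, whose product associates with fibrils and with cell contacts, had the highest mean over the 8 libraries at 13.2 RPKM. Col18a1, the source of endostatin, followed at 6.66 RPKM, then Col23a1, a transmembrane collagen, at 3.61, Col4a5 at 2.47 and Col4a6 at 2.06 RPKM. Among these neighbours the order of Col4a5 and Col4a6 did not hold beyond the spread, with 2.65 ± 0.98 and 2.59 ± 0.38 RPKM (SD, n = 4) in the A20WT libraries. Col3a1 at 0.561, Col1a2 at 0.551 and Col1a1 at 0.543 RPKM lay close together and also within each other's spread.

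The keratinocyte collagen Col17a1 was far more abundant, with 289 ± 72.4 RPKM in the A20WT and 244 ± 16.5 RPKM in the A20KIKO libraries (SD, n = 4). Over the 8 libraries its mean was 141-fold the summed RPKM of the 7 fibrillar genes. Its log2 change was -0.24 (SE 0.17, adjusted p = 0.571), and that of Col7a1, the anchoring fibril collagen, was -0.20 (SE 0.12, adjusted p = 0.51). Neither was called, and both overlapped between the groups. The fibrillar genes made up 6.68 ± 1.47% of the collagen RPKM in the A20WT and 2.44 ± 1.04% in the A20KIKO libraries, and the cartilage genes 7.78 ± 3.09% and 3.11 ± 0.79% (SD, n = 4). Basement membrane genes took 33.6 ± 4.65% and 33.2 ± 1.39%, and the other genes 51.9 ± 2.36% and 61.2 ± 2.90%.

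**Figure D2:**
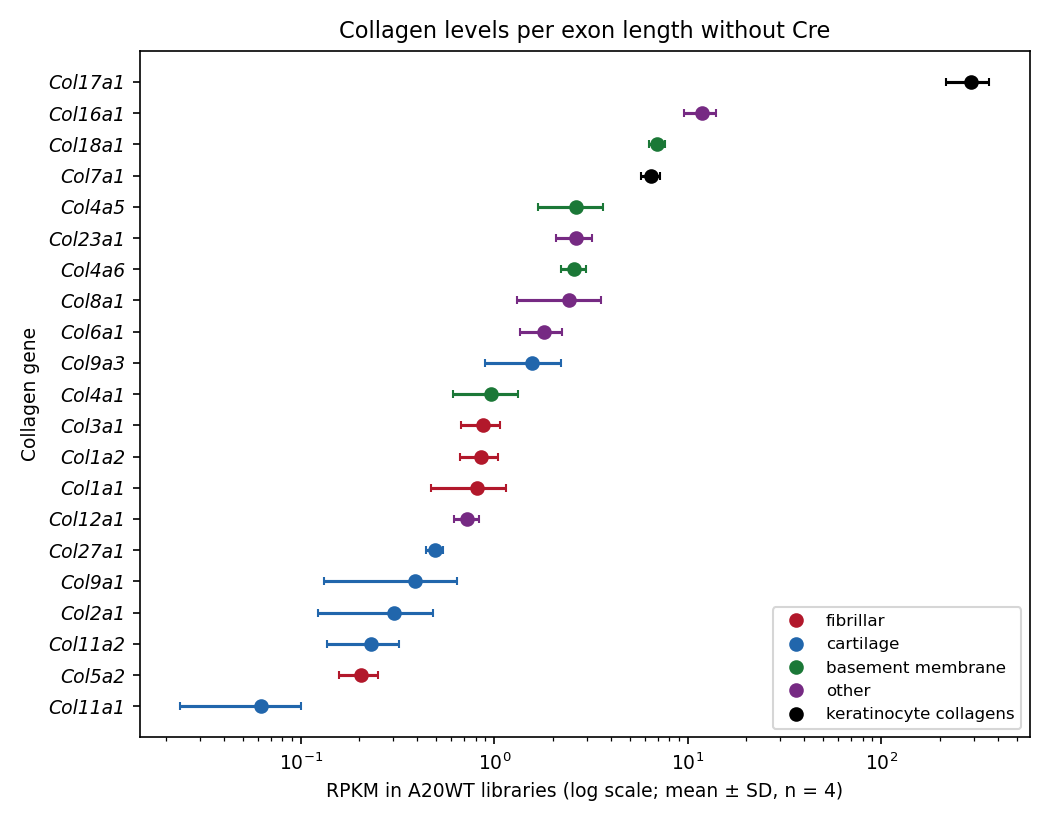
RPKM (log axis) of the named collagen genes and of Col17a1 and Col7a1 in the A20WT libraries, as the mean with bars of 1 SD over 4 libraries, coloured by class. Col17a1 at 289 RPKM stands above Col16a1 at 11.8 RPKM, and the fibrillar and cartilage genes lie at 1.56 RPKM or below.

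The fibrillar class leaves the fibril-forming chains of cartilage to the cartilage class. None of its 6 tested genes was called, although all 6 had negative log2 changes, with a median of -1.22. At an unadjusted p under 0.05, 4 of the 6 were lower in A20KIKO and none higher, where 6.92% of all tested genes were lower and 8.48% higher. DESeq2 called 3 of the 6 lower (Col1a1, Col1a2 and Col3a1), beside 2.45% of all tested genes called lower and 4.41% called higher by that tool. Limma-voom called 2 lower (Col1a2 and Col3a1), beside 1.04% and 2.3%. Col1a1 and Col1a2 encode the chains of type I collagen, the main protein of dermal fibrils. Col1a1 had 1.99, 2.53, 0.44 and 2.20 CPM in A20KIKO mice 1 to 4, and 2.67, 5.82, 4.77 and 8.07 CPM in A20WT mice 1 to 4. Col1a2 had 2.67, 6.49, 0.81 and 2.43 CPM in the A20KIKO and 8.37, 10.4, 9.75 and 13.9 CPM in the A20WT libraries. For both chains every A20KIKO library lay below every A20WT library, narrowly so for Col1a1, and A20KIKO mouse 3 was the lowest.

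Col3a1, whose homotrimers join type I in thin dermal fibrils, had 2.61, 4.47, 0.59 and 2.05 CPM in the A20KIKO and 6.86, 8.25, 7.79 and 11.4 CPM in the A20WT libraries. The groups did not overlap here either, and mouse 3 was again the lowest and mouse 2 the highest of the A20KIKO group. The log2 change was -1.56 for Col1a1 (SE 0.46, adjusted p = 0.113), -1.77 for Col1a2 (SE 0.51, adjusted p = 0.117) and -1.81 for Col3a1 (SE 0.46, adjusted p = 0.0697). Without A20KIKO mouse 2 the adjusted p was 0.0036 for Col1a2 and 0.01 for Col3a1, and without A20KIKO mouse 3 it was 0.0477 and 0.0192. Only these 2 of the 8 fits with 1 library left out called them. In the other fits the adjusted p reached 0.272 for Col1a2 and 0.179 for Col3a1. Col1a1 was called in none of the 8, at an adjusted p of 0.0827 to 0.242.

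Col5a2, a chain of the type V collagen that sets fibril width, had 0.84, 1.61, 1.00 and 0.92 CPM in the A20KIKO and 1.36, 1.96, 2.44 and 2.05 CPM in the A20WT libraries, a log2 change of -0.84 (SE 0.29, adjusted p = 0.171). A20KIKO mouse 2 overlapped the A20WT group. The other type V genes were lower still in counts, Col5a1 with a log2 change of -0.88 (SE 0.50, adjusted p = 0.454) and Col5a3 with -0.34 (SE 0.63, adjusted p = 0.866), and Col24a1 had 2 counts in all. These 3 were named to complete the fibrillar class.

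Summed over the 7 fibrillar genes, the A20KIKO libraries had 8.85, 15.2, 3.36 and 8.18 CPM and the A20WT libraries 20.1, 27.0, 25.7 and 36.3 CPM. The sums did not overlap, and the group means of 8.90 ± 4.88 and 27.3 ± 6.71 CPM (SD, n = 4) differ 3.06-fold. In bulk RNA, fewer cells of a type and less RNA per cell cannot be told apart.

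**Figure D3:**
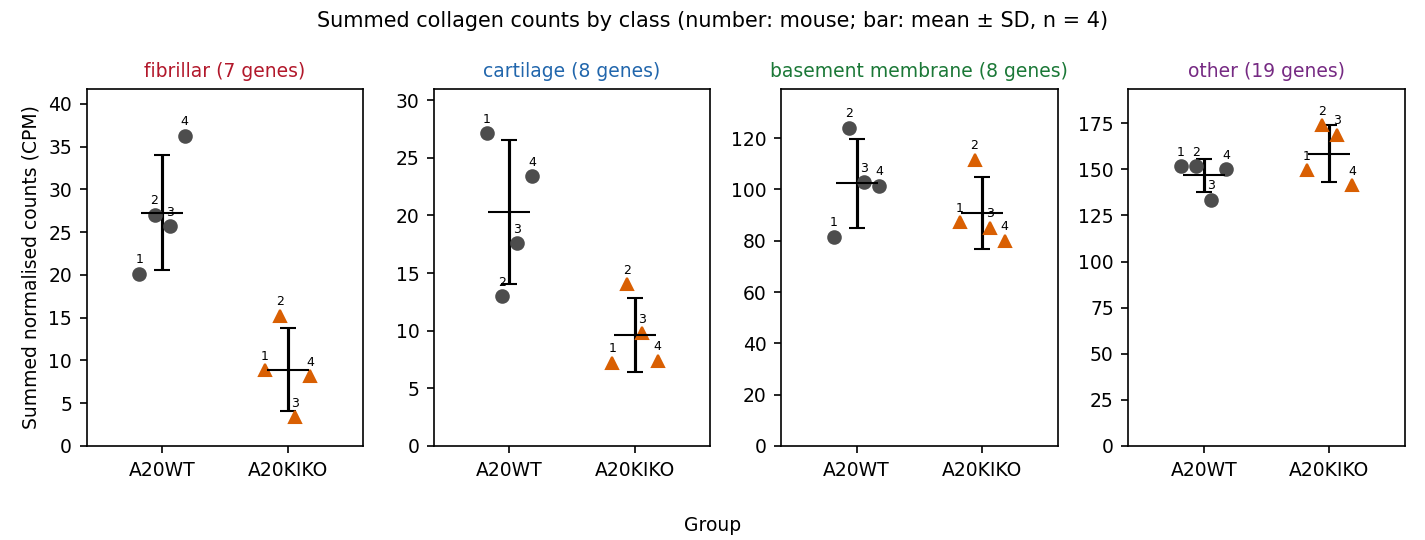
Summed CPM of each collagen class in each library, numbered by mouse, with the mean and SD of 4 libraries, each panel on its own axis from 0. The fibrillar sums do not overlap between the groups, the cartilage sums overlap through A20WT mouse 2 at 13.0 CPM and A20KIKO mouse 2 at 14.1 CPM, and the other classes overlap.

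Fibroblast markers showed no common direction beside the fibrillar genes. Of 15 markers 10 were tested, 1 rose (Ly6c1, log2 change 0.80, SE 0.17, adjusted p = 0.0221) and none fell in edgeR, DESeq2 or limma-voom, beside the 2.43% and 1.06% of all tested genes that edgeR called higher and lower. At an unadjusted p under 0.05, 2 markers were higher and 2 lower, and the median log2 change was 0.08 with 5 negative and 5 positive values. Ly6c1 was not called when A20KIKO mouse 1 or 4 (adjusted p 0.0864 and 0.055) or A20WT mouse 2, 3 or 4 (0.0571, 0.0828 and 0.0814) was left out. The markers summed to between 63.2 and 91.0 CPM in the A20KIKO and between 49.1 and 72.0 CPM in the A20WT libraries. Defining genes were close to 0: 8 of the 15 markers stayed under 1 CPM in every library, among them Pdgfra, the receptor that marks fibroblasts, with 0.0287 ± 0.0237 and 0.181 ± 0.0792 CPM (SD, n = 4). Twist2 was at 0 in all 4 A20KIKO libraries and had 0.0174 ± 0.0276 CPM in the A20WT libraries. Dcn, the decorin that coats fibrils, had 15.6 ± 4.95 and 19.3 ± 3.34 CPM, and Lum, lumican, 0.414 ± 0.426 and 1.09 ± 0.457 CPM, neither called. Fbln1, the matrix protein fibulin-1, lay the other way with 23.6 ± 8.87 and 14.9 ± 3.92 CPM (log2 change 0.67, SE 0.24, adjusted p = 0.198), and Pi16, Pdgfrb and Thy1 had log2 changes of 0.82, 0.41 and 0.23, none called. All markers named here other than Ly6c1 were chosen after their values were seen.

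Cartilage genes held 3 of the 4 collagen genes that fell, 42.9% of the 7 tested in this class against 1.06% of all tested genes. All 7 had negative log2 changes, with a median of -1.86. At an unadjusted p under 0.05, 6 of them were lower, where 6.92% of all tested genes were. Col11a1 (ENSMUSG00000027966, chromosome 3, 114030540 to 114220718 in GRCm38), a chain of the type XI collagen that nucleates cartilage fibrils, had 0.105, 0.173, 0.049 and 0.057 CPM in A20KIKO mice 1 to 4 and 1.49, 0.432, 0.464 and 0.792 CPM in A20WT mice 1 to 4. Every A20KIKO library lay below every A20WT library. The A20KIKO level was 8.13-fold lower, with a log2 change of -3.02 (SE 0.57, adjusted p = 0.011). It rests on 26 counts in the A20KIKO and 244 in the A20WT libraries, and on lane 2 alone the adjusted p was 0.0689.

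Col11a2 (ENSMUSG00000024330, chromosome 17, 34039437 to 34066685), the second type XI chain, had 0.398, 0.571, 0.123 and 0.603 CPM in the A20KIKO and 1.5, 1.03, 1.3 and 2.48 CPM in the A20WT libraries. The groups did not overlap, and the fall was 3.64-fold, with a log2 change of -1.86 (SE 0.44, adjusted p = 0.0395). The call did not hold in 6 of 8 fits that each left out 1 library: the adjusted p was 0.129, 0.054 and 0.055 without A20KIKO mouse 1, 2 or 3, and 0.0636, 0.0798 and 0.131 without A20WT mouse 1, 3 or 4. It was also lost with limma-voom and on either lane alone, where the adjusted p was 0.0515, 0.119 and 0.0692.

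Col9a3 (ENSMUSG00000027570, chromosome 2, 180597790 to 180622189), a chain of the type IX collagen that decorates cartilage fibrils, had 1.23, 2.75, 1.23 and 1.09 CPM in the A20KIKO and 8.58, 2.81, 5.21 and 7.45 CPM in the A20WT libraries. The groups were separated by a narrow gap between A20KIKO mouse 2 and A20WT mouse 2. The fall was 3.83-fold, with a log2 change of -1.94 (SE 0.38, adjusted p = 0.0144). Its adjusted p was 0.0589 and 0.0518 without A20KIKO mouse 1 or 3, and 0.0511 and 0.0508 without A20WT mouse 1 or 4. It shares 234 exon bases, 6.07% of its length, with the opposite-strand gene Tcfl5, whose reads in these bases cannot be told from its own because the library keeps no strand.

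Col9a1, another type IX chain, had 0.035, 1.02, 0.074 and 0.250 CPM in the A20KIKO and 3.81, 0.847, 1.83 and 1.37 CPM in the A20WT libraries, and was not called (log2 change -2.52, SE 0.89, adjusted p = 0.204). Without A20KIKO mouse 2, the 1 A20KIKO library within the A20WT range, the adjusted p was 0.0111. Leaving out any other library gave no call of Col9a1, with an adjusted p up to 0.355. Col2a1, the main collagen of cartilage, had 1.54, 1.59, 1.5 and 1.4 CPM in the A20KIKO and 3.32, 1.12, 1.88 and 4.89 CPM in the A20WT libraries (log2 change -0.89, SE 0.38, adjusted p = 0.271). The A20KIKO values lay within 0.2 CPM of each other while the A20WT values spread widely, and A20WT mouse 2 was below all of them.

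Col27a1, a fibril-forming chain of developing cartilage, had the smallest log2 change of the class, at 5.36 ± 1.94 and 6.43 ± 0.67 CPM in A20KIKO and A20WT (SD, n = 4; log2 change -0.27, SE 0.24, adjusted p = 0.678). Col9a2 had a log2 change of -1.35 (SE 0.55, adjusted p = 0.256), and Col10a1, the collagen of hypertrophic cartilage, had 34 counts in all and was not tested; both are given to complete the class. The 8 genes summed to 7.20, 14.1, 9.78 and 7.39 CPM in the A20KIKO and 27.1, 13.0, 17.6 and 23.4 CPM in the A20WT libraries, means of 9.61 ± 3.19 and 20.3 ± 6.23 CPM (SD, n = 4). A20WT mouse 2 and A20KIKO mouse 2 overlapped in this sum.

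Chondrocyte markers had mostly negative log2 changes as well. Of 18 markers in the files 12 were tested and none was called by edgeR or limma-voom, while DESeq2 called 2 lower (Acan and Snorc). At an unadjusted p under 0.05, 5 were lower and 1 higher, and the median log2 change was -1.06 with 11 negative values. Their summed level ran from 94.6 to 130 CPM in the A20KIKO and from 97.7 to 211 CPM in the A20WT libraries, so the groups overlapped. Cytl1, a cytokine of cartilage, had 9.33, 28.0, 6.64 and 14.6 CPM in the A20KIKO and 74.8, 8.79, 25.3 and 42.4 CPM in the A20WT libraries, where mouse 2 was again high in the first group and low in the second (log2 change -1.37, SE 0.73, adjusted p = 0.453). Acan, the aggrecan core protein, had 0.476 ± 0.269 and 1.55 ± 0.929 CPM (SD, n = 4; adjusted p = 0.123), and 9 of the 18 markers, among them Matn1 and Matn3, were under 1 CPM in every library. Sox9, a cartilage regulator that hair follicle cells also express, had 70.3 ± 4.66 and 58.3 ± 2.41 CPM (adjusted p = 0.194) and made up most of the A20KIKO sum. Acan, Snorc, Matn1 and Matn3 were named after their values were seen. The part that cartilage cells in the sheets have in the collagen result was not tested.

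**Figure D4:**
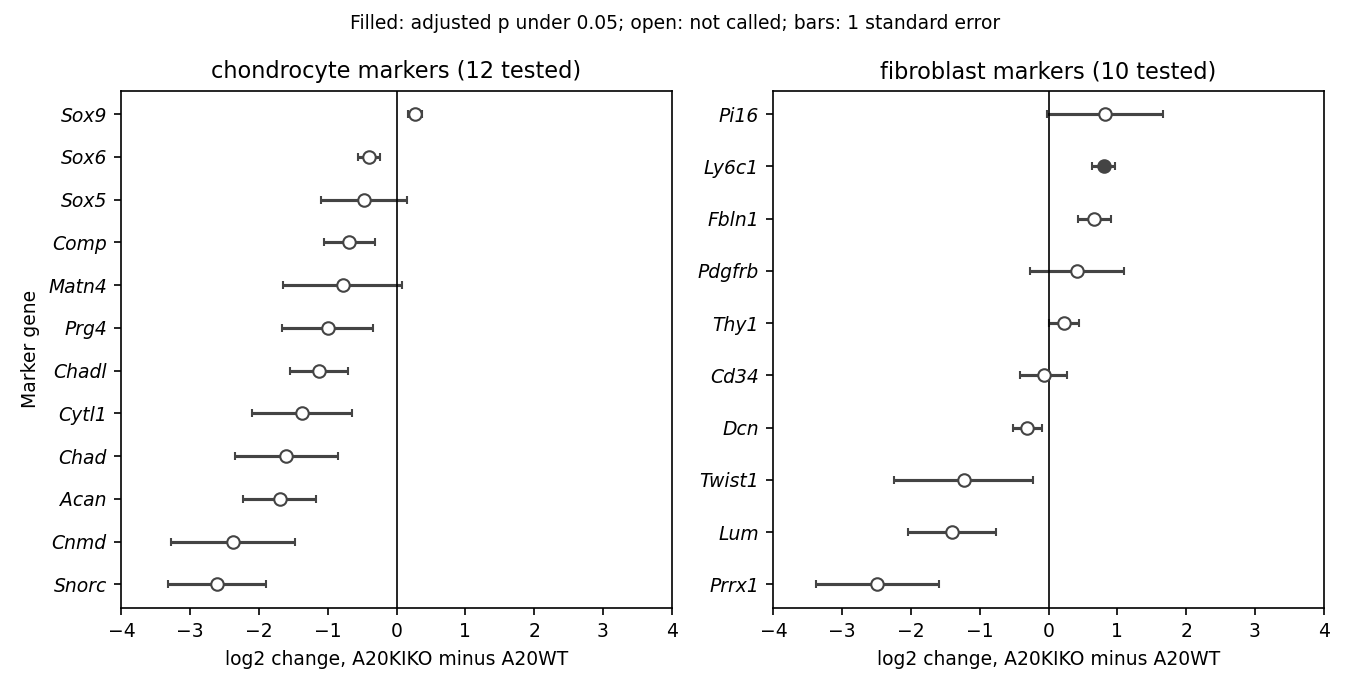
Log2 change (A20KIKO minus A20WT) with bars of 1 SE for the tested chondrocyte and fibroblast markers, filled where the adjusted p is under 0.05. Of the 12 chondrocyte markers 11 lie left of 0 and all are open, while the 10 fibroblast markers lie on both sides and only Ly6c1, at 0.80, is filled.

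None of the 7 tested basement membrane genes was called by edgeR or limma-voom, and DESeq2 called 1, Col4a6. At an unadjusted p under 0.05, 1 was lower and 1 higher, and the median log2 change was -0.13. The type IV genes lie in pairs that share a start region on opposite strands. Col4a1 and Col4a2, the chains of nearly all basement membranes, overlap by 22 bases on chromosome 8. Col4a1 had 12.3, 13.7, 9.09 and 9.68 CPM in the A20KIKO and 4.92, 10.9, 5.88 and 7.13 CPM in the A20WT libraries, overlapping through A20WT mouse 2. Its log2 change was 0.64 (SE 0.24, adjusted p = 0.203), and that of Col4a2 was -0.15 (SE 0.23, adjusted p = 0.833). The adjusted p of Col4a1 was 0.0337 without A20WT mouse 2. Leaving out any other library gave no call of Col4a1, with an adjusted p up to 0.415.

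Col4a5 and Col4a6, the pair of skin basement membrane beneath the epidermis, start 1308 bases apart on the X chromosome. Col4a6 had 12.3, 15.4, 13.7 and 7.46 CPM in the A20KIKO and 18.3, 23.6, 22.8 and 17.6 CPM in the A20WT libraries. These values did not overlap, yet the log2 change of -0.76 missed the threshold (SE 0.20, adjusted p = 0.0696). Without A20KIKO mouse 2 the adjusted p was 0.0471. Leaving out any other library gave no call of Col4a6, with an adjusted p up to 0.182. Col4a5 had 15.0, 18.6, 16.5 and 11.6 CPM against 9.86, 25.9, 17.3 and 18.2 CPM, with a log2 change of -0.21 (SE 0.25, adjusted p = 0.774), and overlapped widely. Whether the changes of the paired genes differ was not tested.

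Col4a3 and Col4a4, the pair known best from the kidney, start 71 bases apart on chromosome 1 and had log2 changes of 0.07 (SE 0.33, adjusted p = 0.955) and 0.23 (SE 0.42, adjusted p = 0.864). Col18a1 had 44.7 ± 6.45 CPM in the A20KIKO and 48.9 ± 4.82 CPM in the A20WT libraries (SD, n = 4; log2 change -0.13, SE 0.13, adjusted p = 0.72). Col15a1, its relative in vessel and muscle basement membranes, had 10 counts in all. Col4a2, Col4a3, Col4a4 and Col15a1 are given to complete the class. The summed level of the 8 genes was 90.9 ± 14.1 and 102 ± 17.4 CPM (SD, n = 4), a difference smaller than the spread within either group.

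The other collagens changed in both directions: 1 fell and 1 rose, with 5 negative and 5 positive log2 changes and a median of -0.12 over 10 tested genes. Col6a1 (ENSMUSG00000001119, chromosome 10, 76708792 to 76726168), a chain of the beaded filaments around cells in dermis and cartilage, had 3.64, 4.76, 2.21 and 2.53 CPM in the A20KIKO and 10.8, 6.58, 7.48 and 6.83 CPM in the A20WT libraries. The groups did not overlap, and the fall was 2.41-fold, with a log2 change of -1.27 (SE 0.26, adjusted p = 0.0168). It was called in all 17 alternative fits, with adjusted p-values from 5.5e-05 to 0.0484. The partner chains, given to complete the trimer, were not called: Col6a2 had a log2 change of -1.35 (SE 0.65, adjusted p = 0.371) and Col6a3 one of -0.54 (SE 0.50, adjusted p = 0.689).

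Col23a1 (ENSMUSG00000063564, chromosome 11, 51289920 to 51583918), a transmembrane collagen that epithelial cells carry, was the collagen gene that rose. It had 27.7, 23.2, 27.4 and 27.0 CPM in the A20KIKO and 12.6, 12.3, 18 and 17.7 CPM in the A20WT libraries. Every A20KIKO library lay above every A20WT library, a 1.74-fold rise with a log2 change of 0.80 (SE 0.15, adjusted p = 0.0128). It was called in all 17 alternative fits, with adjusted p-values from 7.8e-05 to 0.0484. Col12a1, a fibril-associated collagen, also had no overlap, with 20.8, 13.4, 17.5 and 16.4 against 13.0, 11.0, 11.1 and 9.07 CPM, but its log2 change of 0.62 was not called (SE 0.16, adjusted p = 0.0586). Without A20KIKO mouse 2 or A20WT mouse 1 its adjusted p was 0.0327 and 0.0334. It was not called when any other library was left out, with an adjusted p up to 0.207.

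Col16a1, the most abundant of the 42, had 98.3 ± 15.9 and 79.5 ± 14.8 CPM in A20KIKO and A20WT (SD, n = 4), a log2 change of 0.31 that was not called (SE 0.15, adjusted p = 0.365). Col8a1, a short-chain collagen of vessels and membranes, had 2.77, 8.95, 1.40 and 4.38 CPM in the A20KIKO and 30.2, 10.1, 14.5 and 21.6 CPM in the A20WT libraries. The groups did not overlap, with both mice numbered 2 close to each other, and the log2 change of -2.12 was not called (SE 0.59, adjusted p = 0.127). Without A20KIKO mouse 2 its adjusted p was 0.0161, and it was not called when any other library was left out (adjusted p up to 0.291). Its relative Col8a2 had a log2 change of -0.56 (SE 0.28, adjusted p = 0.384), Col20a1 one of 0.47 (SE 0.40, adjusted p = 0.66) and Col19a1 one of 2.51 on 151 counts (SE 0.91, adjusted p = 0.19); these 3 are given to complete the class.

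**Figure D5:**
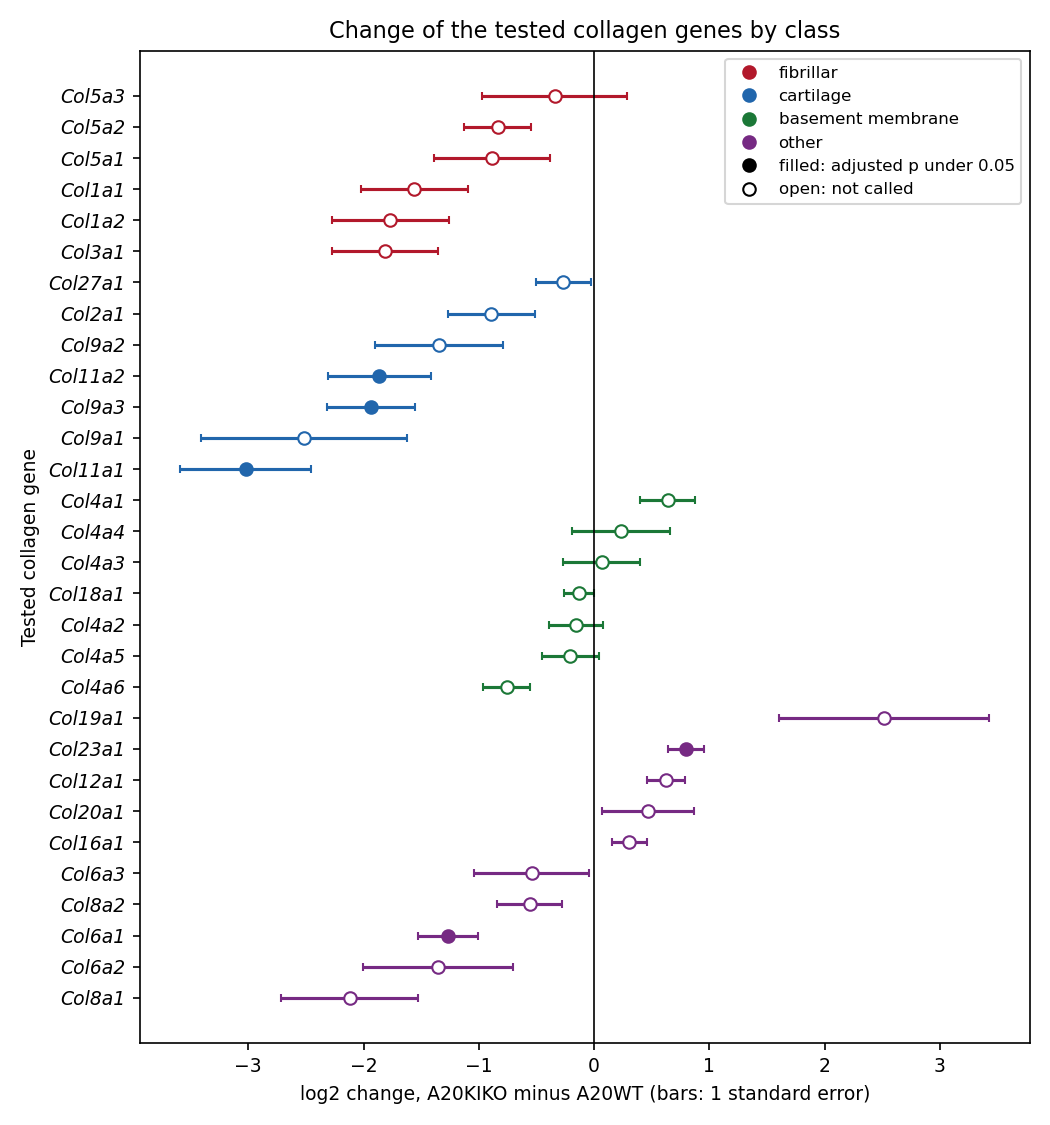
Log2 change (A20KIKO minus A20WT) of the 30 tested collagen genes with bars of 1 SE, coloured by class and filled where the adjusted p is under 0.05. All 6 fibrillar and all 7 cartilage genes lie left of 0, basement membrane and other genes lie on both sides, and 5 genes are filled.

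Among genes that act on collagen, each of 5 lists held 1 or 2 called genes and the other 2 lists held none, which is read against the 2.43% of all tested genes that rose and the 1.06% that fell. Of 20 collagen biosynthesis genes in the files 19 were tested, 1 rose (5.26%) and none fell (4 higher and 0 lower at an unadjusted p under 0.05, and the same call from DESeq2 and limma-voom), with a median log2 change of 0.12. The gene that rose was Plod2, a lysyl hydroxylase that prepares collagen for crosslinking, at 0.958 ± 0.305 CPM in A20KIKO against 0.106 ± 0.0915 CPM in A20WT (SD, n = 4; log2 change 3.08, SE 0.58, adjusted p = 0.0116). Of 9 tested genes for procollagen processing and crosslinking 1 fell (11.1%) and none rose, with a median of -0.58 and, at an unadjusted p under 0.05, 2 lower and 1 higher. DESeq2 called 2 lower (Adamts14 and Tll1) and 1 higher (Tgm2), and limma-voom 1 lower (Adamts14) and 1 higher (Tgm2). Tll1, a procollagen protease gene, and Tgm2, a transglutaminase gene, were named after their values were seen. The gene that fell was Adamts14, a protease that trims the amino end of procollagens, at 15.3 ± 2.08 against 31.1 ± 8.26 CPM (SD, n = 4; log2 change -1.02, SE 0.18, adjusted p = 0.00818).

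Of 16 tested small proteoglycans and fibril-associated genes 1 fell (6.25%) and none rose, with a median log2 change of -0.37, 13 negative values and, at an unadjusted p under 0.05, 6 lower and 1 higher. DESeq2 and limma-voom called 3 lower and none higher. The gene that fell was Ogn, osteoglycin, at 0.780 ± 0.091 against 2.28 ± 0.717 CPM (SD, n = 4; log2 change -1.54, SE 0.28, adjusted p = 0.00948). Of 11 tested collagen degradation genes 1 fell and 1 rose (9.09% each), with a median of 0.13 and, at an unadjusted p under 0.05, 3 lower and 1 higher. Mrc2, the endocytic receptor that takes up collagen fragments, fell, with 11.5 ± 1.06 CPM in A20KIKO and 23.9 ± 4.98 CPM in A20WT (SD, n = 4), a log2 change of -1.06 (SE 0.16, adjusted p = 0.00301). Timp3, an inhibitor of matrix proteases, rose, with 106 ± 16.3 CPM in A20KIKO and 66.4 ± 14.5 CPM in A20WT (SD, n = 4), a log2 change of 0.67 (SE 0.17, adjusted p = 0.0492). Adamts14, Ogn and Mrc2 were called in all 17 alternative fits. Timp3 was called in 9 of 17, and not with library totals as the only scaling (adjusted p = 0.0868), with limma-voom (0.059), or when A20KIKO mouse 1, 2 or 3 (0.151, 0.0881 and 0.141) or A20WT mouse 1, 3 or 4 (0.0512, 0.0959 and 0.132) was left out.

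The cell surface and basement membrane partners of collagen showed 1 call between them. None of 10 tested collagen receptors was called by edgeR, DESeq2 or limma-voom, with 1 higher and none lower at an unadjusted p under 0.05 and a median log2 change of 0.10; the most abundant were Sdc1 (log2 change 0.09, SE 0.11, adjusted p = 0.778) and Ddr1 (log2 change -0.16, SE 0.11, adjusted p = 0.583). Of 16 tested basement membrane partners 1 fell (6.25%) and none rose, with a median of 0.23. At an unadjusted p under 0.05, 2 were lower and 2 higher. DESeq2 called 1 lower and 2 higher, and limma-voom 1 lower and none higher. The gene that fell in all 17 alternative fits too was Frem2, a protein of the membrane beneath the epidermis, at 6.49 ± 0.635 against 11.4 ± 1.30 CPM (SD, n = 4; log2 change -0.81, SE 0.14, adjusted p = 0.00795). None of 15 tested genes of the TGF-beta pathway, which drives collagen transcription in fibroblasts, was called by edgeR or limma-voom, DESeq2 called 1 higher, and 2 were higher and none lower at an unadjusted p under 0.05. Their median was 0.04, and the most abundant, Smad4 and Smad2, had log2 changes of -0.12 (SE 0.11, adjusted p = 0.668) and -0.10 (SE 0.10, adjusted p = 0.708).

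Markers of further cell types were read against the same shares, 2.43% of all tested genes higher and 1.06% lower. Of 5 tested dermal papilla markers 1 fell (20% of the list), Rspo3 (log2 change -1.50, SE 0.28, adjusted p = 0.00939), with a median of -0.58 and summed levels of 2.50 to 3.79 CPM in A20KIKO against 4.92 to 6.63 CPM in A20WT. None of 8 endothelial (median 0.14), 5 skeletal muscle (median -0.10) and 6 adipocyte (median 0.48) markers tested was called by edgeR, DESeq2 or limma-voom, with 0, 0 and 2 of them, both higher, at an unadjusted p under 0.05, and Lep was at 0 in every library. Of 4 tested pericyte and smooth muscle markers Mcam rose (log2 change 4.61, SE 0.32, adjusted p = 4.2e-05; 25% of the list, median 0.99), and of 8 tested Schwann cell markers Ngfr fell (log2 change -0.68, SE 0.16, adjusted p = 0.0423; 12.5% of the list, median -0.11). Macrophage markers rose in 4 of 8 tested (50%, median 1.38, among them C1qa at 2.19) and melanocyte markers in 2 of 8 (25%, median 1.38, Oca2 at 3.28 and Slc45a2 at 2.03), while none of 8 leukocyte markers was called (median 0.30; 1 higher and none lower at an unadjusted p under 0.05 and 1 called higher by DESeq2). With 1 library left out, 0 to 7 melanocyte and 4 to 7 macrophage markers rose. Of 14 keratinocyte markers 1 fell, Krt5 (log2 change -0.83, SE 0.12, adjusted p = 0.00272; 7.14% of the list, median -0.13). The promoter of Krt5 drives the Cre that only the A20KIKO mice carry, so this change cannot be told apart from an effect of carrying it. Of 12 tested hair follicle markers 1 fell, Lgr6 (log2 change -0.74, SE 0.15, adjusted p = 0.0145; 8.33% of the list, median 0.10). With 1 library left out, the call of Lgr6 was lost when that library was A20KIKO mouse 1 or A20WT mouse 3 (adjusted p 0.051 in each), and that of Ngfr in 7 of the 8 fits (all but that without A20WT mouse 1, adjusted p up to 0.155). DESeq2 called Ngfr too, but limma-voom (adjusted p = 0.0721) and lane 2 alone (0.0697) did not. The part of any of these cell types in the collagen levels was not tested.

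The counts called depend on single libraries. The 4 falling collagen genes became 2 when A20KIKO mouse 1, or mouse 1 or 4 of the A20WT group, was left out, and 9 without A20KIKO mouse 2. The 1 rising gene became 2 when A20KIKO mouse 2, or mouse 1 or 2 of the A20WT group, was left out.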

How the data were processed

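For each of 8 libraries the authors deposited raw counts by Ensembl gene identifier, split over 2 lanes. Per the labels, poly-adenylated RNA was copied to full-length cDNA with the SMART-Seq v4 kit, amplified by PCR, tagmented with Nextera and sequenced as read pairs on a NovaSeq, a chemistry that keeps neither strand nor molecular identifiers. Reads from exons that overlapping genes share on opposite strands therefore cannot be assigned by strand, and PCR copies count as reads. Named in the submitters' processing notes are HTSeq 0.6.1p1, Picard 1.139, STAR 2.4.2a and the builds GRCm38.p5 and GRCh38. The annotation release and counting options are not given in the sources.

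Lanes were summed. Of 51912 identifiers 51633 matched a symbol and 51719 a position in GENCODE M21 on GRCm38. In R 4.3.3, edgeR 4.0.16 filtered genes with filterByExpr (minimum count 10, minimum total 15), which left 16512, scaled libraries by trimmed means of M values (TMM) and fitted robust quasi-likelihood models with the group as the only term. A two-sided adjusted p under 0.05 was a call, over a biological coefficient of variation of 26.3%. Log2 changes are A20KIKO minus A20WT, and the SE is the size of the log2 change over the root of its F. CPM are counts scaled to the tested counts of a library times its TMM factor, and RPKM divides CPM by the kilobases of merged M21 exons. The 4 mice of a group are distinct animals, so the spread is between mice. The pipeline was tested on simulated data. Tables were handled in Python 3.11.15 (pandas 2.3.3, NumPy 2.4.6) and plotted with Matplotlib 3.10.9.

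The collagen genes, their classes, the 7 pathway and 13 cell type lists were chosen with earlier results of these data known, so no list was tested. The naming rule took every called collagen gene, the 4 genes of each class with the highest mean CPM, and of other lists up to 3 called genes with the smallest adjusted p or else the 2 with the highest mean; other genes are marked where named. The alternatives were 2 other scalings, a stricter count filter (1 CPM in 4 libraries) and none, DESeq2 1.42.0, limma 3.58.1 with voom, the replicate number as a block, each lane alone and each library left out.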

Additional observations from a re-analysis of the deposited data

Results flagged for a closer look

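In 3 of 50 groups of 4 libraries examined for the collagen genes and class sums, 1 library stood apart from the other 3 by more than Dixon's 95% limit on the gap to its neighbour, where chance alone gives about 1 in 20. Col9a3 was highest in A20KIKO mouse 2, at 2.75 CPM against 1.09 to 1.23 CPM in the other A20KIKO libraries. Col23a1 was lowest in A20KIKO mouse 2, at 23.2 CPM against 27.0 to 27.7 CPM. The summed level of the other collagens was lowest in A20WT mouse 3, at 134 CPM against 150.2 to 152 CPM in the other A20WT libraries. The cause was not tested in any of the 3.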

How the results depend on the processing

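Across 17 alternatives, 98 of 119 values of the counts and class medians stayed within the limits set for them and 21 moved. With DESeq2 the 4 falling genes became 9 (with Col1a1, Col1a2, Col3a1, Col4a6 and Col8a1) and the 1 rising gene became 2 (with Col12a1). Without a count filter, 2 genes rose. Leaving out 1 library gave 2 to 9 falling and 1 to 2 rising genes, and a median over all tested collagen genes of -0.88 to -0.56. That median was -0.89 without a count filter. The fibrillar median was -1.56 without a filter, -1.66 with the stricter filter and -1.66 on lane 2 alone, and -1.48 to -1.03 with 1 library left out. The median of the other class was -1.13 without a filter, -0.56 with the stricter filter, -0.58 on lane 1 and -0.49 on lane 2 alone, and -0.377 to -0.0373 with 1 library left out. The filters change which genes enter these medians, and so does a single lane, where 28 collagen genes were tested against 30. Leaving out A20KIKO mouse 2 or 3, or A20WT mouse 4, changes them too, with 31 tested. The cause of the rest was not tested. The cartilage median stayed between -2.02 and -1.56 in every alternative, and the basement membrane median between -0.23 and 0.07, positive only without A20WT mouse 2, where the log2 change of Col4a5 also turned positive, at 0.029 (from -0.41 to 0.029 with 1 library left out). Deviations of each library from its group mean (log2 of CPM plus 0.5, over the tested genes) were correlated between the groups. Same-numbered libraries gave 0.039, 0.075, -0.033 and 0.353, and differently numbered ones -0.296 to 0.338. The numbers were therefore not taken to pair the mice. The replicate block gave 6 falling genes (Col1a2, Col3a1 and Col4a6 added, Col9a3 lost at an adjusted p of 0.0686) and 1 rising gene. Depth limits Col11a1, which dropped out under the stricter filter, and the 12 untested genes. Counting errors alone do not cover PCR duplication.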

Other observations

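Elastin, the partner of collagen in ear cartilage and dermis, was named after its values were seen. Eln had 0.889, 3.63, 0.392 and 1.45 CPM in the A20KIKO and 27.7, 4.58, 8.05 and 18.6 CPM in the A20WT libraries, a log2 change of -3.21 that edgeR did not call (SE 0.83, adjusted p = 0.111), while DESeq2 and limma-voom did. The groups did not overlap, and mouse 2 was the highest A20KIKO and the lowest A20WT library. That order was also seen in other collagen genes, among them Col2a1, Col6a1, Col6a2, Col8a1, Col9a1, Col9a2, Col9a3 and Col11a1. It was not seen in Col11a2, Col1a1, Col1a2 or Col3a1. The collagen genes listed for that order were chosen after their values were seen. Whether they vary together between the mice was not tested.

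The counts of some rare collagens were spread unevenly, and these genes too were chosen after their values were seen. All 20 counts of Col6a6 were in A20WT mouse 3. Of the 37 counts of Col25a1, 12 were in A20KIKO mouse 1 and 22 in A20WT mouse 1. Col13a1 had 11 counts over the A20KIKO and 0 over the A20WT libraries, and Col26a1 had 0 and 6. None of the 4 had enough counts to be tested.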
